A study of Mus musculus with 2 samples.

Results

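Mt1, Mt2 and Mt3 are the metallothionein genes examined here, 3 of the 32285 genes in the expression matrices of single cells from the retinal pigment epithelium (RPE), choroid and sclera of mice. They were found by their symbols, and their unique molecular identifiers (UMIs, 1 per captured RNA molecule) were summed over groups of cells. The study compared a control library, from eyes injected under the retina with phosphate-buffered saline, with a Dox library, from eyes injected with doxorubicin, a chemotherapy drug used there at a low dose to induce senescence of the RPE. Each eye received 1 µl, with doxorubicin at 100 ng/µl in the Dox group, and tissue was taken 7 days later from male C57BL/6J mice of 3 months. Each library pooled 10 eyes of 5 mice, so there was 1 library per condition. Values therefore carry only counting errors, no difference between conditions could be tested, and treatment, pool of mice and library cannot be told apart. Both libraries came from injected eyes, so an effect of the injection itself cannot be seen.

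Of 36030 deposited cells, 35606 passed the quality limits (20180 control, 15426 Dox). RPE cells were the 3156 with at least 10 UMIs of Rpe65, the isomerase of the visual cycle, 1526 in the control and 1630 in the Dox library. Just outside the limit, 199 kept cells had 8 or 9 Rpe65 UMIs, and just inside it 147 had 10 or 11. Of the RPE cells, 2693 lay in a cluster with 10 of 11 RPE markers detected, and 463 lay in other clusters. Whole libraries held 117731270 and 103997248 UMIs, and a median kept cell held 4495 and 4995, against 16014 and 18116 in RPE cells. Barcodes occurring in both libraries numbered 427 over the kept cells, 3 of them in RPE cells. Within the RPE, 153 control and 211 Dox cells had Malat1, a nuclear long non-coding RNA, at 50000 CPM or more (counts scaled to a total of 1000000 UMIs) and are called Malat1-rich, 16 of the Dox cells with high Serpina3n as well. Of the rest, 15 control and 192 Dox cells had Serpina3n, a secreted protease inhibitor, at 1000 CPM or more and are called Serpina3n-high, and 1358 and 1227 cells carried neither mark.

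Metallothioneins are short, cysteine-rich proteins that hold zinc and copper ions through their sulphur atoms and buffer the free metal of a cell. Mt1 and Mt2 are made in most tissues, and zinc switches them on through the transcription factor Mtf1, which binds metal response elements in their promoters. Glucocorticoids and oxidative stress also induce them. Mt3 was first described as a growth inhibitory factor of the brain and responds weakly to metals, and Mt4 belongs to stratified epithelia. The RPE is a zinc-rich, pigmented layer that is exposed to light and oxygen.

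The 3 genes lie close together on the plus strand of chromosome 8 (GRCm38/mm10, GENCODE annotation). Mt3 spans chr8:94152607-94154146, Mt2 spans chr8:94172664-94173568 and Mt1 spans chr8:94179082-94180327, each a protein-coding gene of 3 exons. Mt2 and Mt1 are separated by 5513 bases, and Mt3 and Mt2 by 18517. An antisense gene, Gm45774, overlaps 749 bases of Mt2 on the other strand. The coding sequences show what the family shares, with cysteine codons in capitals.
Mt1: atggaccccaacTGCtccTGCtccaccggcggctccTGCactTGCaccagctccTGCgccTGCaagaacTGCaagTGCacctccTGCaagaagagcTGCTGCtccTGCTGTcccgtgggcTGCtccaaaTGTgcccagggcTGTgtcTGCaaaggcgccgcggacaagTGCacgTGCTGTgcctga
Mt2: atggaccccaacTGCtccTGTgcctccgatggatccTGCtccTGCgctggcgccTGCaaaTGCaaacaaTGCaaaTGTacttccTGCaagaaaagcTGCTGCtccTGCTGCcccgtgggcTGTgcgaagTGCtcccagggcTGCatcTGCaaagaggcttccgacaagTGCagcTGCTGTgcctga
Mt3: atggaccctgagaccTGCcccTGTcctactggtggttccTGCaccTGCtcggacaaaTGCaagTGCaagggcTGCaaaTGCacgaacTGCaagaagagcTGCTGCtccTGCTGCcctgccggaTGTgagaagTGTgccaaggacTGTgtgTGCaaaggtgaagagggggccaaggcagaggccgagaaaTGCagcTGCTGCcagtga
Each holds 20 cysteine codons, which is 32.8% of the 61 codons of Mt1 and of Mt2 and 29.4% of the 68 codons of Mt3. Mt1 and Mt2 were identical at 79.6% of alignment columns (148 of 186), against 68.9% for Mt1 and Mt3 (144 of 209) and 69.2% for Mt2 and Mt3 (144 of 208). Gap columns count as differences in these shares, so the greater length of Mt3 lowers the latter 2. Mt3 is 7 codons longer than the others.

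The 250 bases before the RefSeq start of each gene (GRCm38.p6, plus strand) are shown because Mt1 and Mt2 followed a similar order of levels over the cell groups while Mt3 followed another. Capitals mark the core of the metal response element, searched as TGCACNC or TGCGCNC on both strands.
Mt1 (chr8:94178839-94179088): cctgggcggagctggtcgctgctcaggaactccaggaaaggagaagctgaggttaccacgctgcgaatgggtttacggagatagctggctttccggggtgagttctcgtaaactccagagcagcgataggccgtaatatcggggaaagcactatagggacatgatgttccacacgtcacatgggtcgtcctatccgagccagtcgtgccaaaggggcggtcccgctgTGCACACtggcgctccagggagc
Mt2 (chr8:94172368-94172617): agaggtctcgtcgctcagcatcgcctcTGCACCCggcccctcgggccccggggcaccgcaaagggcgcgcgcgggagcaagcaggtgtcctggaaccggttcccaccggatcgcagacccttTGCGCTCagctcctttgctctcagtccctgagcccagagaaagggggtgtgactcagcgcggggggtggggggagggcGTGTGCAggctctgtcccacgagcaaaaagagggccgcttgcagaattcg
Mt3 (chr8:94152357-94152606): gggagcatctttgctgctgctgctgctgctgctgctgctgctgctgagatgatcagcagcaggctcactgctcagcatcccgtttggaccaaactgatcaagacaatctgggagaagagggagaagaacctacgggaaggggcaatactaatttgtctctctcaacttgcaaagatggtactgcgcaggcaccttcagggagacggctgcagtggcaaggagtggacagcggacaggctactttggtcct
The Mt1 window held 1 match, beginning 23 bases before the start. The Mt2 window held 3, beginning 223 and 128 bases before the start on the plus strand and 50 bases before it on the minus strand. The Mt3 window held 0 matches, which says only that these letters are not in this window. The counts of Mt1 and Mt2 are limited to their windows in the same way. Bases after each RefSeq start were not searched, and the coding sequence of Mt1 begins only at chr8:94179311. Of all 32851 windows of this length in the RefSeq table, 21.4% held at least 1 match and 1.26% held at least 3. A match of letters is not a measured binding site, and a link between these matches and the levels over cell groups was not tested.

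Metallothionein RNA was abundant in RPE cells. The 3 genes together took 2.11% of all UMIs of RPE cells in both libraries. By number of UMIs, Mt1 ranked 5 among the 18692 genes detected in control RPE cells and 5 among 18835 in Dox-RPE cells. Mt3 ranked 20 and 22, and Mt2 ranked 65 and 56. The Mt1 level of RPE cells was 15638 CPM (95% exact Poisson interval 15590 to 15685) in the control and 16052 CPM (16008 to 16097) in the Dox library. The Mt2 level was 1255 CPM (1241 to 1268) and 1320 CPM (1307 to 1333). The Mt3 level was 4179 CPM (4155 to 4204) and 3683 CPM (3662 to 3705). Intervals cover counting error only. Nearly every RPE cell held Mt1, as 99.9% of control and 100% of Dox-RPE cells had at least 1 UMI, and Mt2 and Mt3 were found in 94.8% to 97.0% of cells. Thinned to 2000 UMIs a cell, the shares with Mt2 were 80.9% in the control and 81.1% in the Dox library, and those with Mt3 were 92.3% and 90.9%.

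The plot of levels by cell group sets the 3 RPE classes beside the other cells of the preparation, which were clustered with the metallothionein genes kept out. All cells with fewer than 10 Rpe65 UMIs held Mt1 at 5277 CPM in the control and 5482 CPM in the Dox library. Leaving the RPE-like cluster aside, the highest Mt1 level was that of an unnamed cluster led by Cxcl10, Cxcl9 and Ccl11, at 8849 CPM in 1423 control cells and 8504 CPM in 1250 Dox cells. An unnamed cluster led by Hbb-bs, a haemoglobin gene, followed with 5864 and 6779 CPM in 2040 and 1993 cells. Its cells were shallow, with a median of 1128 UMIs in the control and 763 in the Dox library, and mixed in their markers. Melanocyte markers summed to 38506 CPM and RPE markers to 10812 CPM in its control cells, against 25373 and 30833 CPM in its Dox cells. At a finer resolution these cells fell mainly into a melanocyte-like cluster, with Mt1 at 5517 CPM in the control and 5663 CPM in the Dox library, and a shallower one with 5 of 5 erythroid markers detected, with Mt1 at 7370 and 8455 CPM. RPE markers summed to 31363 and 54537 CPM in the latter. Fibroblast-like cells led by Myoc, the largest group with 11291 control and 8410 Dox cells, held 5440 and 5447 CPM. Smooth muscle-like cells held 4521 and 3983 CPM, and an unnamed cluster led by the long non-coding RNA Snhg7os held 3990 and 4473 CPM. The cluster named NK- or T-like had 10 of 10 such markers detected, but the immunoglobulin genes Igkv4-91 and Ighv1-55 led it, ahead of Gzmc and Gzma. The lowest Mt1 levels were those of NK- or T-like cells (2308 and 2154 CPM), endothelial-like cells (1999 and 1662 CPM) and macrophage- or antigen-presenting-like cells (1991 and 2053 CPM). In this order, the counting intervals of neighbours overlapped in the control library for macrophage- and endothelial-like cells and for smooth muscle-like and Malat1-rich RPE cells. In the Dox library they overlapped among macrophage-like, NK- or T-like and a second, Dpt-led fibroblast-like group, and between Schwann-like and smooth muscle-like cells.

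**Figure D1:**
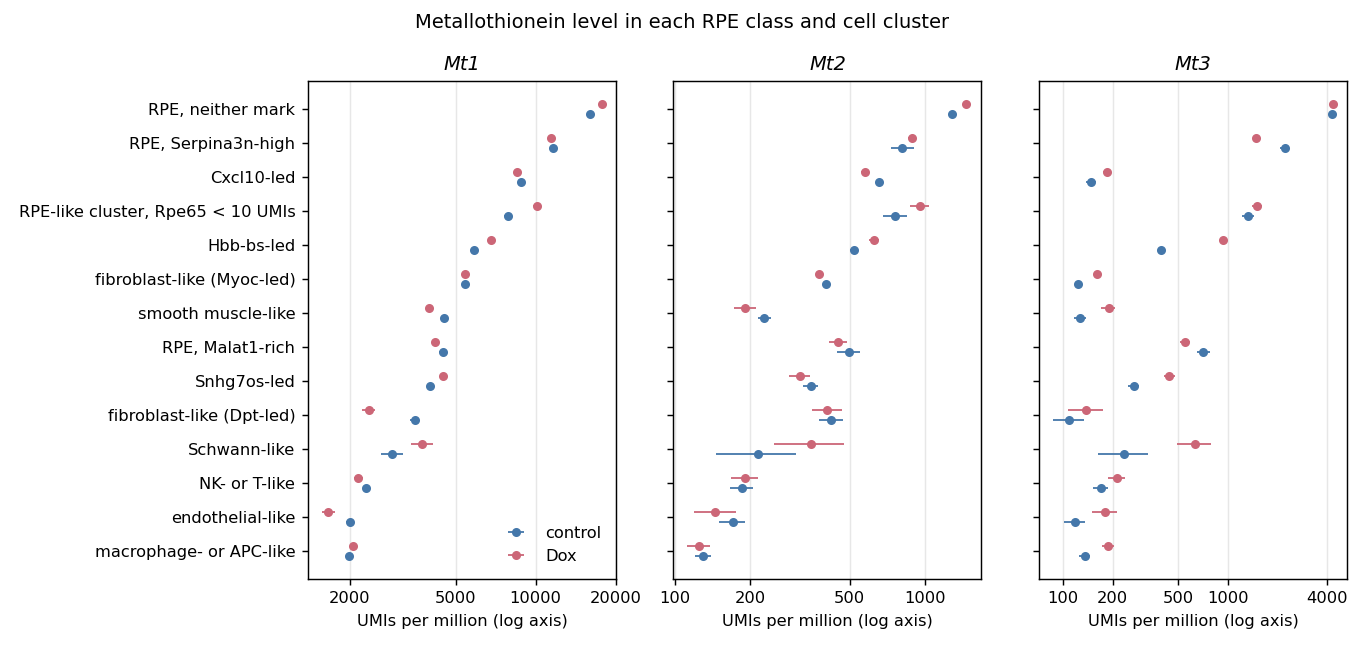
Level of Mt1, Mt2 and Mt3 in CPM (UMIs per 1000000, log axes) in each RPE class and cell cluster, control in blue and Dox in red, with bars for the exact Poisson 95% interval, which is often smaller than the point. RPE cells with neither mark are highest for each gene, and Mt3 is at 4318 CPM there and at 108.6 CPM in Dpt-led fibroblast-like cells of the control library.

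Mt2 followed much the same order as Mt1 at a lower number of UMIs. Its highest level outside the RPE and the RPE-like cluster was 658 CPM in the control library, in the Cxcl10-led cluster, and 627 CPM in the Dox library, in the Hbb-bs-led cluster, where the Cxcl10-led cluster held 574 CPM. Its lowest was 129.8 CPM in the control and 124.7 CPM in the Dox library, both in macrophage-like cells. The number of Mt1 UMIs per Mt2 UMI was 12.5 in control RPE and 12.2 in Dox-RPE cells. It was higher in smooth muscle-like cells, at 19.9 (18.7 to 21.1) in the control and 20.9 (18.9 to 23.1) in the Dox library. It was lower in Dpt-led fibroblast-like cells, at 8.35 (7.45 to 9.38) and 5.80 (4.99 to 6.77), while the Myoc-led fibroblast-like cells stood at 13.6 and 14.4. The 2 fibroblast-like groups thus held different proportions of the 2 genes in both libraries.

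Mt3 was concentrated in RPE cells. Its CPM in RPE cells was 27.3-fold that of all other cells in the control library, a log2 ratio of 4.77 (4.74 to 4.79), and 17.2-fold in the Dox library, a log2 ratio of 4.10 (4.08 to 4.13). This placed Mt3 at rank 14 of 14917 genes in the control and 19 of 14558 in the Dox library, above Rpe65, which defined the cells and had a log2 ratio of 4.37 in the control and 3.83 in the Dox library. Mt1 and Mt2 were higher in RPE cells too, though under 4-fold, with log2 ratios of 1.57 and 1.68 in the control and 1.55 and 1.77 in the Dox library. Of all genes tested (those with at least 50 UMIs over both sides), 6.03% were 4-fold or more higher in RPE cells of the control and 6.34% in the Dox library, so Mt3 was called in both and Mt1 and Mt2 in neither. Mt3 made up 19.8% of the family's UMIs in control RPE cells and 17.5% in Dox-RPE cells, against 2.63% and 3.52% in the other cells.

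The little Mt3 found outside the RPE mostly stood near or below the level that stray RPE RNA would bring. In droplet data, free RNA from broken cells is captured with every cell, and genes from 1 source then keep the ratio they have in that source. Each gene's UMIs were therefore set over those that RPE RNA alone would bring, scaled in turn by Rpe65, Rgr, Rlbp1 and Ttr, 4 genes of the RPE (a visual cycle isomerase, an opsin, a retinoid-binding protein and a retinol carrier). For Mt3 this ratio lay between 0.50 and 1.08 in each non-RPE cluster of each library, except Schwann-like cells of the Dox library, where it was 1.39 to 2.08 on 72 UMIs in 32 cells. The source of the Mt3 in the clusters within that range was not tested. Over all other cells the Mt3 ratio was 0.62 to 0.91 in the control and 0.66 to 0.86 in the Dox library, so the scaling brought more Mt3 than was measured. The share of other cells with an Mt3 UMI was 44.3% in the control and 56.8% in the Dox library, at median depths of 4291 and 4712 UMIs. For Mt1 the ratio exceeded 1 in each cluster. It was 9.91 to 15.04 in the control and 7.25 to 9.07 in the Dox library for the Cxcl10-led cluster, and 7.55 to 11.04 and 5.12 to 6.79 for Myoc-led fibroblast-like cells. It was nearest to 1 in the Hbb-bs-led cluster of the Dox library, at 1.03 to 1.43, against 2.44 to 3.70 in the control. The ratio of Mt2 in that Dox cluster was 1.16 to 1.60. The scaling covers stray RNA of RPE cells only. Other cells held 471215 Mt1 UMIs against 411482 in RPE cells of the control library, and 373189 against 500844 in the Dox library. Free RNA from those cells would also bring Mt1 and Mt2, and its part in ratios above 1 was not tested.

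**Figure D2:**
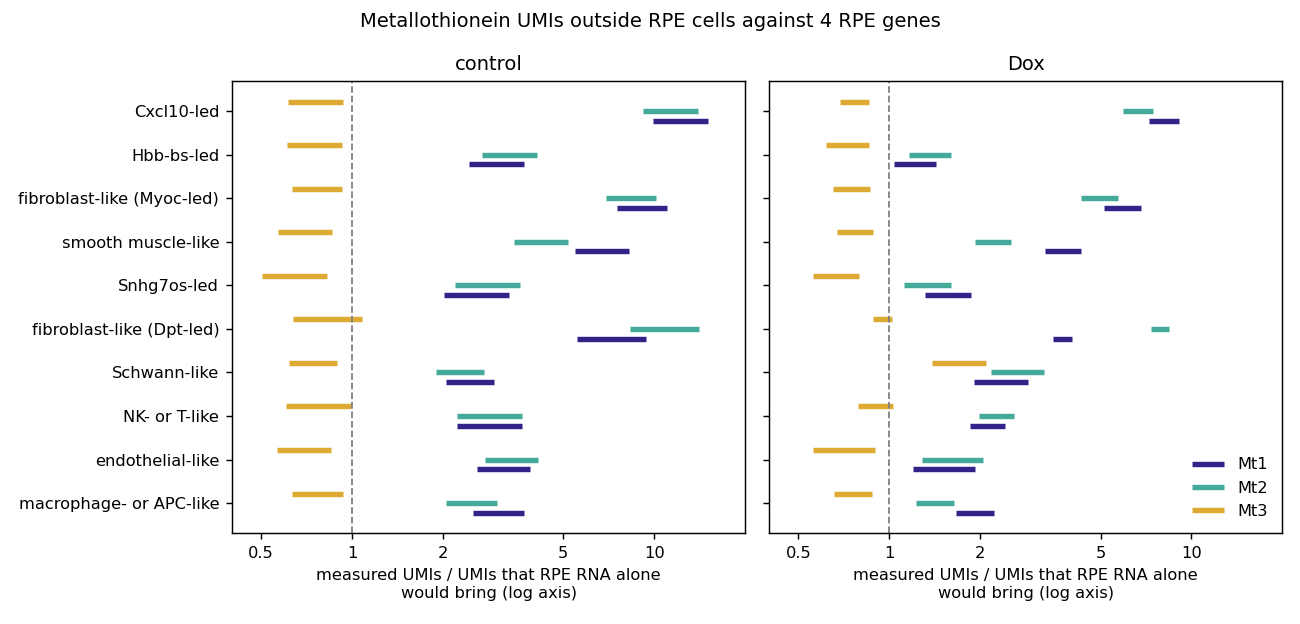
Measured UMIs of each gene over those that RPE RNA alone would bring (log axis), by cell cluster, for the control library at left and the Dox library at right. Each bar spans the values scaled by Rpe65, Rgr, Rlbp1 and Ttr, the dashed line marks 1, and Mt3 bars lie between 0.50 and 1.08 apart from Schwann-like cells of the Dox library, while Mt1 in the Cxcl10-led cluster reaches 15.04.

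Mt3 in the other clusters was higher in the Dox library, and so were the 4 RPE genes in most of them. Over all other cells, the log2 ratio of Dox over control was 0.48 for Mt3 and 0.52 to 0.77 for the 4 genes. In the Hbb-bs-led cluster it was 1.25 for Mt3, on 395 against 939 CPM, and 1.39 to 1.57 for the 4 genes. That Mt3 ratio was 0.58 (0.31 to 0.84), inside 1.5-fold, once cells were thinned to 2000 UMIs and shallower ones left out. At the finer resolution it was 1.20 in the melanocyte-like cells and 0.47 in those with erythroid markers. In Myoc-led fibroblast-like cells it was 0.38 for Mt3 and 0.46 to 0.69 for the 4 genes. In the Schwann-like cells it was 1.42 (0.81 to 2.05) for Mt3 and 0.29 to 0.55 for the 4 genes, on 34 and 72 Mt3 UMIs in 48 and 32 cells. In Dpt-led fibroblast-like cells it was 0.35 (-0.13 to 0.82) for Mt3 and -0.01 to 0.74 for the 4 genes. Cells of the RPE-like cluster with fewer than 10 Rpe65 UMIs stood at 0.19 (0.04 to 0.35) for Mt3 and -0.24 to 0.39 for the 4 genes.

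Inside the RPE, metallothionein levels differed by class. Cells with neither mark held Mt1 at 16041 CPM in the control and 17697 CPM in the Dox library, Mt2 at 1285 and 1462 CPM, and Mt3 at 4318 and 4335 CPM. Serpina3n-high cells of the Dox library held Mt1 at 11442 CPM, Mt2 at 883 CPM and Mt3 at 1483 CPM. Malat1-rich cells held the least, with Mt1 at 4493 CPM in the control and 4181 CPM in the Dox library, Mt2 at 496 and 449 CPM, and Mt3 at 711 and 551 CPM. The same order appeared in single cells. The median Dox cell held Mt3 at 4097 CPM with neither mark (quartiles 2611 and 5592), 1333 CPM in the Serpina3n-high class (885 and 1947) and 333 CPM in the Malat1-rich class (89.0 and 746). For Mt1 the medians were 16896 (11936 and 22194), 11158 (6595 and 14968) and 2899 CPM (1673 and 4441). The quartile ranges of the first and second class overlapped for Mt1 and did not for Mt3.

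**Figure D3:**
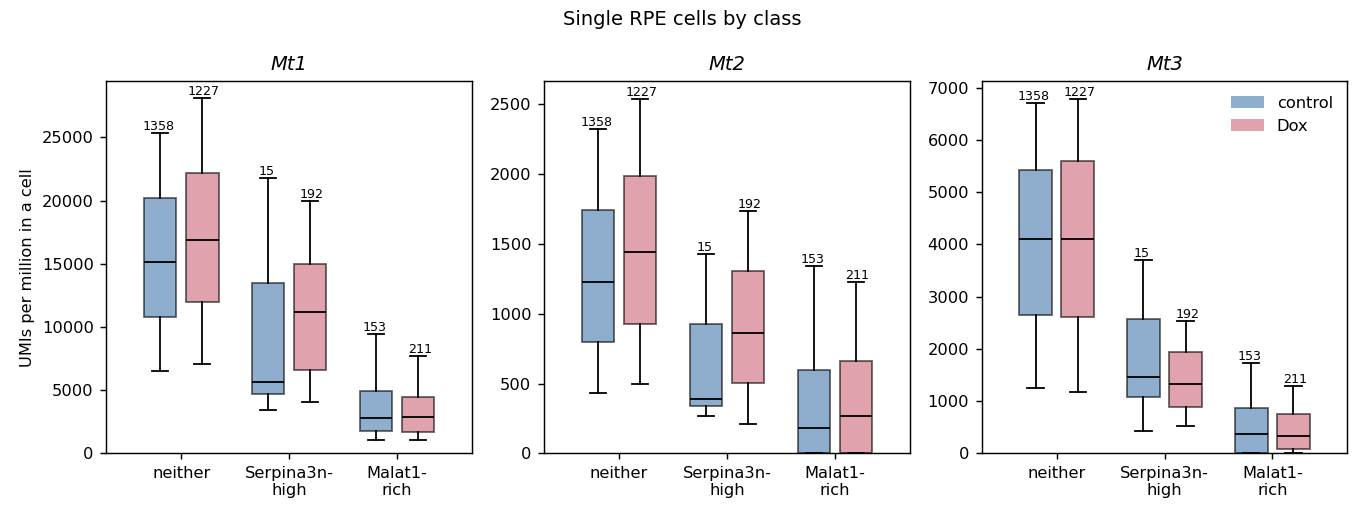
CPM of Mt1, Mt2 and Mt3 in single RPE cells by class, control in blue and Dox in red; boxes span the quartiles with the median as a line, whiskers the 10th to 90th percentile, and the number above each box counts its cells. The Mt3 median is 4097 CPM in Dox cells with neither mark and 1333 CPM in Serpina3n-high cells, and the control Serpina3n-high boxes rest on 15 cells.

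Serpina3n-high cells held less Mt3 than cells with neither mark by 2.92-fold in the Dox library, a log2 ratio of -1.55 (-1.58 to -1.52). The log2 ratios of Mt2 and Mt1 were -0.73 (-0.77 to -0.68) and -0.63 (-0.64 to -0.62). Of 11461 genes tested, 19.0% were 1.5-fold or more lower in Serpina3n-high cells and 4.96% were that much higher, so all 3 members fell on the side of the larger group. The median gene stood at -0.17, and relative to it the members stood at -1.38, -0.56 and -0.46, with Mt2 and Mt1 then inside 1.5-fold. They also came inside it, at -0.25 and -0.22, when cells with 3 Rpe65 UMIs were admitted to the RPE, where Mt3 stood at -0.92. Rpe65 was lower in these cells by a similar factor as Mt3, at 1928 against 5540 CPM. Rgr stood at 6945 against 12951 CPM, Rlbp1 at 1969 against 2848 CPM and Ttr at 68235 against 74339 CPM. Serpina3n-high cells were also deeper, with a median of 28883 UMIs against 19075. Fibroblast markers summed to 323 CPM in them (6 of 12 at 10 CPM or more) against 855 CPM (9 of 12) in cells with neither mark. Melanocyte markers summed to 1955 CPM against 1868 CPM (9 of 10 in both) and macrophage markers to 111 CPM against 205 CPM (3 and 5 of 12). The part of depth and of these other cells in the result was not tested. Within the RPE-like cluster alone, Mt3 stood at -1.58, Mt2 at -0.76 and Mt1 at -0.65.

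In the control library, 15 cells were Serpina3n-high. Their log2 ratios over cells with neither mark were -0.96 (-1.05 to -0.87) for Mt3, -0.66 (-0.81 to -0.51) for Mt2 and -0.46 (-0.50 to -0.42) for Mt1. Their summed Mt1 level was 11628 CPM. The mean of the cells' own Mt1 levels was 10241 CPM and the median 5625 CPM (quartiles 4683 and 13485), so the 15 cells were unevenly spread.

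The level of Mt3 was lower at Serpina3n values well under the limit that defined the class. Among Dox cells below the Malat1 limit, Mt3 stood at 4624 CPM in the 670 cells with 0 Serpina3n UMIs and at 4266 CPM in 471 cells with Serpina3n up to 250 CPM. It was 2943 CPM in 46 cells from 250 to 500 CPM and 1726 CPM in 40 cells from 500 to 1000 CPM. Above the limit, in 4 ranges of which each began at double the Serpina3n level of the one before, it was 1854, 1443, 1482 and 1364 CPM in 30, 47, 57 and 58 cells. Control cells followed the same course, with Mt3 at 4468 CPM in 1153 cells, 3887 CPM in 164, 2901 CPM in 23 and 2281 CPM in 18 over the 4 ranges below the limit. Mt1 in the Dox library went from 18663 CPM at 0 Serpina3n UMIs to 10974 CPM in the range from 250 to 500 CPM, and lay between 9006 and 12793 CPM in all ranges above it. Mt2 went from 1549 to 996 CPM over the same step and lay between 681 and 980 CPM beyond it. The 4 RPE genes were lower along the same Dox ranges, each by its own amount. Rpe65 went from 5844 CPM at 0 to 1494 CPM in the highest range, by another course than Mt3. It stood at 3123 CPM in the range from 250 to 500 CPM and at 3291 CPM from 500 to 1000 CPM, a step over which Mt3 was lower. Above the limit Rpe65 went from 2514 to 1494 CPM. Rgr went from 13508 to 6523 CPM and Rlbp1 from 2961 to 1789 CPM. Ttr was the flattest, at 75561 CPM at 0, 58269 CPM in the range from 250 to 500 CPM and 65316 to 71842 CPM beyond it. Cells of the range from 250 to 500 CPM were shallow in the Dox library, with a median of 7459 UMIs against 18277 at 0 Serpina3n UMIs. A single Serpina3n UMI puts a shallow cell in a higher range than a deep one.

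**Figure D4:**
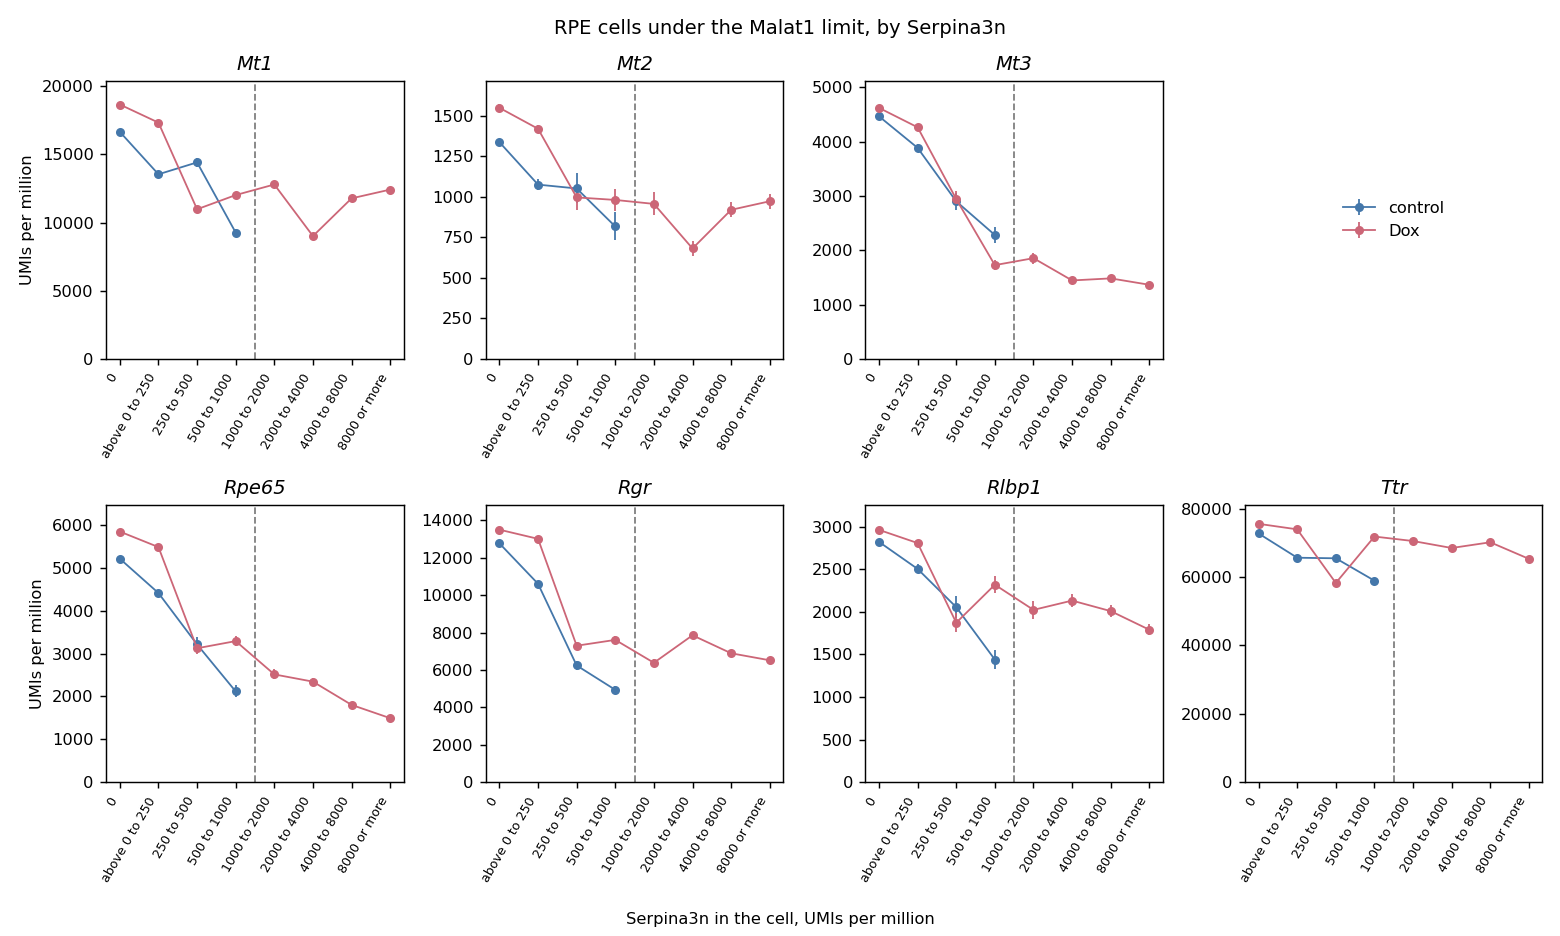
Levels of Mt1, Mt2 and Mt3 (top) and of Rpe65, Rgr, Rlbp1 and Ttr (bottom) in CPM (linear axes from 0) in RPE cells below the Malat1 limit, grouped by the cell's own Serpina3n level, control in blue and Dox in red, with exact Poisson 95% intervals; the dashed line is the 1000 CPM limit. Mt3 in the Dox library goes from 4624 CPM at 0 to 1364 CPM in the highest range and Rpe65 from 5844 to 1494 CPM, while Ttr goes from 75561 to 65316 CPM with its lowest value, 58269 CPM, between; the 15 control cells above the limit are not drawn.

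Malat1-rich cells stood further from the main RPE cells. Their log2 ratios over cells with neither mark were -2.60 (-2.73 to -2.48) for Mt3, -1.84 (-1.89 to -1.79) for Mt1 and -1.37 (-1.53 to -1.23) for Mt2 in the control library, and -2.98 (-3.08 to -2.87), -2.08 (-2.12 to -2.04) and -1.70 (-1.82 to -1.58) in the Dox library. In both libraries 17.0% of genes were 1.5-fold or more lower, and the median gene stood at 0.55 in the control and 0.60 in the Dox library, so the members lay further below the median than below 0. Counted from the lowest ratio, Mt3 ranked 26 of 11439 genes in the control and 14 of 11372 in the Dox library. The log2 ratio of Ttr was -2.03 in the control and -2.19 in the Dox library, that of Rgr -0.97 and -1.26, and that of Rlbp1 -1.05 and -0.96. Rpe65, on which the cells were gated, stood at 5081 against 5006 CPM in the control library, a log2 ratio of 0.0214 (-0.0256 to 0.0681), and at 4422 against 5540 CPM in the Dox library, a log2 ratio of -0.33 (-0.36 to -0.29). These cells held a median of 4117 UMIs in the control and 5025 in the Dox library, against 17597 and 19075 with neither mark, so that the limit of 10 Rpe65 UMIs asks for a higher Rpe65 share in them. Malat1 itself took 131396 CPM in the control and 138349 CPM in the Dox library. Fibroblast markers summed to 2707 CPM in the control Malat1-rich cells (8 of 12 at 10 CPM or more) against 1324 CPM (9 of 12) with neither mark, and melanocyte markers to 4810 against 2846 CPM (10 and 9 of 10), and their part was not tested. In the Snhg7os-led cluster lay 84 of the 153 control and 104 of the 211 Dox cells. With a Malat1 limit 2 times lower, the log2 ratio of Mt2 in the control library was -0.39, inside 1.5-fold, and that of Mt3 in the Dox library was -1.64.

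The comparison of the Dox with the control library over all RPE cells gave differences far inside 1.5-fold for each member. The log2 ratio was 0.04 (0.03 to 0.04) for Mt1, 0.07 (0.05 to 0.09) for Mt2 and -0.18 (-0.19 to -0.17) for Mt3. Of 12773 genes tested, 1.66% were 1.5-fold or more higher and 4.92% that much lower in Dox-RPE cells, and 0 of the 3 members were among them. The median gene stood at -0.01. In cells with neither mark the log2 ratios were 0.14 (0.14 to 0.15) for Mt1, 0.19 (0.16 to 0.21) for Mt2 and 0.01 (-0.01 to 0.02) for Mt3, while 0.875% of 12463 genes were past 1.5-fold higher and 4.32% lower. With cells from 3 Rpe65 UMIs admitted, the values in cells with neither mark were 0.04 for Mt1, 0.05 for Mt2 and -0.13 for Mt3. In Serpina3n-high cells they were -0.02 (-0.06 to 0.02), 0.12 (-0.03 to 0.28) and -0.58 (-0.68 to -0.49), the control side resting on 15 cells. With a Serpina3n limit 2 times higher Mt3 stood at 0.07 (-0.10 to 0.25). Over 16 settings this Mt3 ratio ran from -0.77 to 0.07 and was past 1.5-fold in 6. In Malat1-rich cells the log2 ratios of Mt1, Mt2 and Mt3 were -0.10 (-0.17 to -0.04), -0.14 (-0.33 to 0.05) and -0.37 (-0.53 to -0.20). With 1 library per condition, none of these differences has a replicate check. The study reports that doxorubicin injected under the retina reached only part of the RPE. Cells that it reached were not separated from the others here, so the Dox values cover both.

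The lower Mt3 of Dox-RPE cells as a whole came with a different mix of classes. Serpina3n-high cells contributed 1.72% of RPE UMIs in the control and 17.4% in the Dox library, and cells with neither mark 95.4% and 78.5%. With the Dox classes weighted as in the control library, an alternative added after the data had been seen, Mt3 stood at 4179 CPM, as in the control, in place of 3683 CPM. Mt1 then stood at 17206 CPM and Mt2 at 1424 CPM, log2 ratios of 0.14 and 0.18 over the control. The classes were cut at a fixed level of Serpina3n, which itself differed between the libraries. Of the cells with neither mark, 1153 of 1358 in the control and 670 of 1227 in the Dox library had 0 Serpina3n UMIs. The weighting cannot tell a change of mix from a change within cells, and neither was tested. Malat1-rich cells contributed 2.84% of RPE UMIs in the control and 4.13% in the Dox library. Both marked classes held less of all 3 genes than cells with neither mark. The mix alone, applied to the control levels, gave log2 ratios of -0.08 for Mt1, -0.10 for Mt2 and -0.14 for Mt3. The control levels of the Serpina3n-high class rest on 15 cells.

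**Figure D5:**
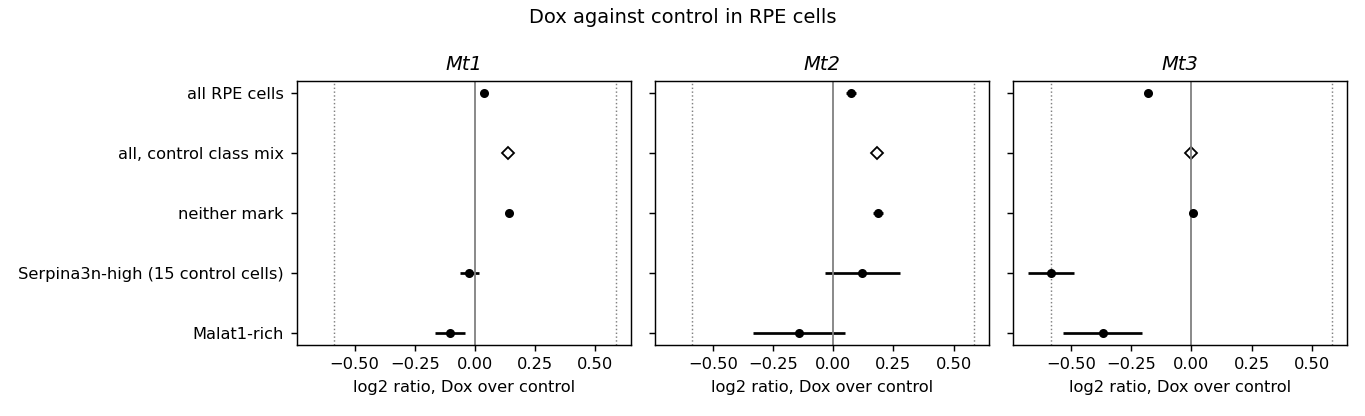
Log2 ratio of the Dox over the control library for Mt1, Mt2 and Mt3 in all RPE cells and in each class, with exact 95% counting intervals; the open diamond gives all RPE cells with the classes at their control proportions, the solid line marks 0 and the dotted lines 1.5-fold. Mt3 stands at -0.18 over all RPE cells and at 0.01 in cells with neither mark.

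The higher Mt1 and Mt2 of Dox cells with neither mark were seen at each depth. When these cells were split into 3 equal groups by UMIs per cell, the log2 ratio of Dox over control was 0.13 to 0.17 for Mt1 and 0.19 to 0.20 for Mt2. Split by mitochondrial share, it was 0.09 to 0.22 for Mt1 and 0.17 to 0.21 for Mt2. The Mt3 ratio ran from -0.08 to 0.18 over the 6 groups. The same ratio in these cells was 0.15 for Rpe65, 0.09 for Rgr, and 0.06 for Rlbp1 and for Ttr. Mt1 and Mt2 differed between the libraries by about as much as Rpe65, on which the cells were gated, and by more than Rgr, Rlbp1 and Ttr.

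In cells with neither mark and in Serpina3n-high cells, Mt1 and Mt2 varied together from cell to cell, and Mt3 less so with Mt1. These correlations describe cells of 1 library each, share depth and free RNA, and carry no test. In cells with neither mark, Spearman's rho between Mt1 and Mt2 was 0.72 over 1358 control and 0.78 over 1227 Dox cells, and 0.47 and 0.54 after each cell was thinned to 2000 UMIs. Between Mt1 and Mt3 it was 0.45 and 0.48, and 0.40 and 0.39 after thinning. In the 192 Serpina3n-high Dox cells, Mt1 and Mt2 stood at 0.82 and, thinned, at 0.62, while Mt1 and Mt3 stood at 0.07 and 0.06. The Malat1-rich cells did not all follow this order. Thinned, their Mt1 to Mt2 value was 0.55 and their Mt1 to Mt3 value 0.31 over 129 control cells, against 0.28 and 0.36 over 191 Dox cells. The Dox cells of the Snhg7os-led cluster, at 0.15 and 0.16 after thinning, had Mt3 slightly ahead too. In Myoc-led fibroblast-like cells the Mt1 to Mt2 value was 0.48 in both libraries before thinning, and 0.40 in the control and 0.39 in the Dox library after it. The family's make-up shifted with the class. Mt3 held 18.5% of the family's UMIs in Dox cells with neither mark and 10.7% in Serpina3n-high cells, and in the control library 19.9% and 15.2%. As a share of all UMIs the 3 genes took 2.35%, 1.38% and 0.518% in the neither, Serpina3n-high and Malat1-rich classes of the Dox library, and 2.16%, 1.47% and 0.570% in those of the control.

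Outside the RPE, Mt1 differed between the libraries by less than 1.5-fold in each cluster, and Mt2 in each but the Schwann-like cells. The log2 ratio of Dox over control was 0.00 (-0.01 to 0.01) for Mt1 and -0.09 (-0.11 to -0.06) for Mt2 in Myoc-led fibroblast-like cells, and -0.06 and -0.20 in the Cxcl10-led cluster. In the Hbb-bs-led cluster, the second largest, it was 0.21 (0.18 to 0.24) for Mt1 and 0.27 (0.18 to 0.35) for Mt2. There the Mt1 ratio was -0.0209 with cells thinned to 2000 UMIs and 0.37 by the mean of the cells' own CPM, and in the melanocyte-like cells of the finer resolution it was 0.0376. Mt1 stood at -0.18 in smooth muscle-like cells and at -0.27 in endothelial-like cells. The lowest value was that of Dpt-led fibroblast-like cells, -0.58 (-0.68 to -0.48) for Mt1, on 115 control and 66 Dox cells, with Mt2 at -0.05 (-0.31 to 0.21). The highest were those of Schwann-like cells, 0.71 (-0.00608 to 1.43) for Mt2 on 31 and 40 UMIs and 0.38 (0.18 to 0.57) for Mt1 on 418 and 429 UMIs, and the interval of the former included 0. Cells of the RPE-like cluster with fewer than 10 Rpe65 UMIs, 76 in the control and 77 in the Dox library, held Mt1 at 7843 and 10089 CPM and Mt3 at 1323 and 1513 CPM.

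Other genes of metal handling and of the pathways that induce metallothioneins were also compared between Dox-RPE and control RPE cells. All those tested but 1 differed by less than 1.5-fold. Over all genes 1.66% were that much higher and 4.92% that much lower, so a count of 0 in a list this short is near that share. Of 27 zinc genes, 20 were tested, 0 were past 1.5-fold either way and the median log2 ratio was 0.03, against -0.01 over all genes. Mtf1, the zinc sensor, stood at 18.5 CPM in the control and 17.2 CPM in the Dox library, a log2 ratio of -0.10 (-0.28 to 0.08). Slc30a1, the zinc exporter that Mtf1 also controls, stood at 13.4 and 14.5 CPM, a log2 ratio of 0.12 (-0.09 to 0.32). The most abundant zinc genes were Car14, a zinc-dependent carbonic anhydrase, at 1547 and 1554 CPM, and Slc39a12, a zinc importer, at 81.2 and 81.6 CPM. All 18 copper genes were tested and 0 were past 1.5-fold, with a median of -0.03. The copper chaperones Atox1 and Cox17 led that list at 514 and 340 CPM in the control and 525 and 308 CPM in the Dox library.

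Of 16 glucocorticoid-responsive genes, 13 were tested, 0 were past 1.5-fold higher and 1 was lower, beside 1.66% and 4.92% over all genes, with a median of -0.13 against -0.01. That gene was Fkbp5, a chaperone of the glucocorticoid receptor, on 53 control and 40 Dox UMIs, and its log2 ratio of -0.65 had an interval of -1.28 to -0.03. Of 19 genes of the oxidative stress response, 18 were tested and 0 were past 1.5-fold, with a median of -0.06. These were targets of the transcription factor Nrf2, Nrf2 itself and its repressor Keap1. The ferritin subunits Fth1 and Ftl1 led this list, at 4217 and 3998 CPM in the control and 3786 and 3637 CPM in the Dox library. Both have near-identical pseudogene copies, so that their counts are uncertain. Counting intervals lay above 0 for 3 zinc, 1 copper, 0 glucocorticoid-responsive and 3 Nrf2 genes. They lay below 0 for 0, 3, 6 and 8 genes of these lists, Fkbp5 included. The same share over all genes was not computed, and the interval of an abundant gene leaves 0 at a small ratio. These counts therefore do not show that a list as a whole differed.

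The same lists were set against the classes, and the genes named next were chosen after their values were seen. In Serpina3n-high Dox cells, 2 of 18 zinc genes tested were 1.5-fold or more higher than in cells with neither mark and 4 were lower, beside 4.96% and 19.0% of all genes, so that the lower count was near the share over all genes. The importers Slc39a13 and Slc39a14 were higher, at log2 ratios of 0.68 and 0.78, and Slc39a12, Slc30a5, Slc39a3 and Slc39a9 lower, at -0.63, -0.75, -0.75 and -0.65. Of 17 copper genes, 2 were higher and 3 lower, among them the copper pump Atp7a at 0.77 and the metalloreductase Steap2 at -1.08. Of 12 glucocorticoid-responsive genes 0 were higher and 3 lower, and of 18 Nrf2 genes 1 was higher and 1 lower. The latter were Hmox1, haem oxygenase, at 1.36 and the quinone reductase Nqo1 at -1.33. The list medians were -0.18, -0.07, -0.21 and 0.03, against -0.17 over all genes.

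In Malat1-rich Dox cells, where 50.6% of all genes were 1.5-fold or more higher than in cells with neither mark and 17.0% lower, the lists stood otherwise. Of 18 zinc genes, 7 were higher and 1, Car14, was lower at -0.69. Of 17 copper genes, 7 were higher and 7 lower, with Atp7a at 2.08 and the chaperones Atox1 and Cox17 at -1.97 and -2.18. Of 12 glucocorticoid-responsive genes, 9 were higher and 0 lower, among them Nr3c1, the glucocorticoid receptor, at 1.67. Of 18 Nrf2 genes, 6 were higher and 9 lower, with the peroxiredoxin Prdx1 at -1.58. The list medians were 0.47, 0.38, 0.98 and -0.19, against 0.60 over all genes.

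Across cell groups, Mt1 and Mt2 resembled each other and Mt3 resembled genes of the RPE. Likeness was Pearson's r of log2(CPM + 1) over 12 groups in each of 2 libraries, 24 points that share libraries and free RNA, among 6801 genes. The genes most like Mt1 were Mt2 (0.921), Mrps6 (0.917), Smim1 (0.908), Tspan3 (0.906) and Pmm1 (0.904). Those most like Mt2 were Bdh2 (0.941), Grhpr (0.923), Pmm1 (0.923), Smim1 (0.922) and Mt1 (0.921). Those most like Mt3 were Rd3l (0.993), Ttr (0.991), Cltrn (0.984), Rsph10b (0.983) and Gm48956 (0.981). The r of Mt3 with Mt1 was 0.728 and with Mt2 0.757.

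The neighbours of the gene cluster were low in RPE cells. Mt4, the fourth gene of the family, had 0 UMIs in both libraries, which allows up to 0.114 CPM in control RPE and 0.0962 CPM in Dox-RPE cells at 3 UMIs. Bbs2, on one side of the cluster, stood at 11.6 CPM in the control and 10.8 CPM in the Dox library, and Nup93, on the other side, at 4.67 and 4.97 CPM. The antisense gene Gm45774 had 12 UMIs in RPE cells of each library, against 33012 and 41185 of Mt2.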

How the data were processed

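The data were UMI counts per gene and cell, deposited by the authors as 1 matrix of 32285 genes for each library. The file headers give Cell Ranger 4.0.0, and the methods of the study name another version as well. The genome was mm10. Per those methods, libraries were prepared with a 10x Chromium 5′ kit after papain dissociation of RPE, choroid and sclera and removal of dead cells. Whether counting kept strand and intronic reads is not given in the sources used here, so reads of Mt2 and its antisense gene may not be told apart.

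Cells were kept with over 500 UMIs, over 200 and under 6000 genes, a log10 ratio of genes to UMIs above 0.8 and a mitochondrial share under 0.2. RPE cells were gated by Rpe65 alone, and the classes by Malat1 and Serpina3n. Other cells were clustered in R 4.3.3 with Seurat 5.3.0 and sctransform 0.4.2 (integration of both libraries, with Mt1, Mt2, Mt3 and Mt4 kept out), and clusters were named only where at least 3 markers were detected and 1 was among the 10 leading genes, and not where the first gene marked another type. The genes and cell groups, the gene lists and the limits were chosen with earlier results of these data known. Genes named besides the 3 members were Mtf1, Slc30a1, list members past 1.5-fold or else the 2 most abundant of a list, the 5 genes most alike to each member, the neighbours and the genes used to gate cells. Those named from the classes were chosen after their values were seen.

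Counts were summed per group and scaled to a total of 1000000 (CPM). Levels have exact Poisson and ratios exact conditional binomial 95% intervals, shares Clopper-Pearson intervals, and PCR and cell sampling are not covered. A gene was tested against the fold limits with 50 or more UMIs over both sides. On simulated counts for RPE cells, 99.5% of 196 genes changed 2-fold, of 12768 genes, were called in the right direction. Of the unchanged genes, 1.13% were called past 1.5-fold. The simulation held counting error only, without variation between cells or libraries. Scrublet (scanpy 1.11.5) called 0 of 20180 control cells and 1134 of 15426 Dox cells doublets, so its own threshold did not work in the control, doublets were kept, and leaving out the highest scores was an alternative.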

Additional observations from a re-analysis of the deposited data

Results flagged for a closer look

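The cells that the quality limits left out also held metallothionein RNA, in data that no comparison above used. The 201 control cells left out held Mt1 at 11321 CPM, Mt2 at 902 CPM and Mt3 at 3269 CPM. The 223 Dox cells left out held Mt1 at 14317 CPM, Mt2 at 1121 CPM and Mt3 at 3913 CPM. Of them, 56 control and 116 Dox cells had at least 10 Rpe65 UMIs, and 30 and 78 of these had 6000 genes or more. The level of each of the 3 genes lay above that of the kept cells with fewer than 10 Rpe65 UMIs.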

How the results depend on the processing

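No paired analysis was possible because each condition has 1 library, and no replicate could be left out. Over all alternatives, Mt3 stayed past 4-fold in RPE over other cells, Mt1 and Mt2 stayed under it, and no member passed 1.5-fold between Dox-RPE and control RPE cells. In log2 ratios of RPE over other cells, for Mt1, Mt2 and Mt3 in turn, admitting cells with 3 Rpe65 UMIs gave 1.23, 1.36 and 4.45 in the control and 1.20, 1.41 and 3.75 in the Dox library. Asking for 30 gave 1.59 for Mt1 and 4.44 for Mt3 in the control and 1.56, 1.74 and 3.83 in the Dox library. Asking for the RPE-like cluster gave 1.61, 1.72 and 4.83, and 1.59, 1.82 and 4.16. Asking for Rpe65 at 1000 CPM gave 1.58 for Mt1 in the control, and 1.57, 1.80 and 4.15 in the Dox library. Leaving out mitochondrial genes and Malat1 gave 1.59, 1.70 and 4.795, and 1.58, 1.80 and 4.14. The mean of the cells' own CPM gave 1.43, 1.59 and 3.98, and 1.34, 1.61 and 3.02. Thinning to 2000 UMIs gave 1.43, 1.64 and 4.58, and 1.405, 1.74 and 4.08. Leaving out the highest doublet scores gave 1.67, 1.77 and 4.86, and 1.58, 1.82 and 4.14. A mitochondrial share under 0.1 gave 1.58 for Mt1 and 4.82 for Mt3 in the control and 1.56 and 4.14 in the Dox library. No upper limit on genes or on complexity gave 1.55 for Mt1 in the control, and 1.54 for Mt1 and 1.75 for Mt2 in the Dox library. Leaving out cells with a shared barcode, added after the data had been seen, gave Mt1 at 1.56 and 1.54.

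For Dox over control in RPE cells, the values that moved by more than counting error were as follows. Mt1 stood at 0.049 with Rpe65 at 1000 CPM, at 0.0491 with centring on the median gene, at 0.0106 with 3 Rpe65 UMIs and at -0.0056 without the highest doublet scores, its one change of sign. Mt2 stood at 0.0202 with 3 Rpe65 UMIs, at 0.0229 without the highest doublet scores, and at 0.0438 with thinning. Mt3 stood at -0.17 with Rpe65 at 1000 CPM, -0.22 with 3 Rpe65 UMIs, -0.27 without the highest doublet scores, -0.16 with the mean of the cells' own CPM and without the upper limits, and -0.15 with thinning. With the classes at control proportions, added after the data had been seen, the values were 0.14 for Mt1, 0.18 for Mt2 and -0.000209 for Mt3. The cause of these shifts was not tested.

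Ratios of a class over cells with neither mark kept their sign in 135 of 135 alternatives and their side of 1.5-fold in 130. Ratios of Dox over control kept their sign in 111 of 135 alternatives within the classes and in 183 of 198 within other cell types, and 0 of those past 1.5-fold changed sign. They kept their side of 1.5-fold in 129 and 184 of these. In the Serpina3n-high class the Dox over control ratio of Mt3 ranged from -0.77 to 0.07 and was past 1.5-fold in 6 of 16 settings. By Spearman in place of Pearson, 3 of the 5 genes most like Mt1, 3 of those most like Mt2 and 2 of those most like Mt3 were shared. Values without the upper gene limit were not computed for the other cell types because the added cells were not clustered, and resolution 0.2 could be used only for types with 1 cluster of a name and for the Hbb-bs-led cluster, whose Mt3 ratio ran from 0.47 to 1.31. Depth limits the Schwann-like and Dpt-led fibroblast-like groups, with 31 to 72 UMIs of Mt2 or Mt3 in the former.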
